A study of Mus musculus with 4 samples.

Results

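The genes described here encode the subunits of the PPP family of protein serine/threonine phosphatases in mouse early erythroid progenitors, as measured in RNA recovered by immunoprecipitation. Members were taken by gene symbol alone: every gene with a probe set of its own whose symbol starts with Ppp1 to Ppp6, read from its brightest probe set (highest mean of the 4 arrays). This gave 79 genes of the 19938 measured, 11 of them catalytic (symbols starting Ppp1c to Ppp6c) and 68 regulatory (Ppp1r to Ppp6r). No measured difference entered that choice. Of the regulatory symbols, 4 are those of pseudogenes.

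PPP phosphatases remove phosphate from serine and threonine through a small set of closely related catalytic subunits. PP1 and PP2A do most of this work in animal cells, calcineurin answers to calcium, and PP4, PP5 and PP6 have narrower duties in the nucleus, at chaperones and at the spindle. A free catalytic subunit has little choice of substrate. Scaffold, targeting and inhibitor subunits decide where the enzyme acts, so each phosphatase is in effect a large set of holoenzymes built on few catalytic cores. In red cell precursors a PP1 complex also undoes the phosphorylation of eIF2 alpha that the haem-regulated kinase lays down when haem is short.

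The cells were sorted from fetal liver of C57BL/6 embryos at E14.5, after depletion of lineage-positive, Sca-1, CD16/32, CD41 and CD34 cells, as c-Kit positive cells with low CD71. Their lysate was incubated with control rabbit IgG (2 arrays) or with an antibody specific for an RNA-binding protein (RBP, 2 arrays), and strain, embryonic age and sort are shared by both groups. The labels leave the protein unnamed; the published study concerns ZFP36L2, a zinc finger protein that binds AU-rich elements of mRNAs, and the antibody was not checked here. No input RNA is among the 4 arrays, and the labels do not say that the 2 arrays of a group are separate preparations, so p-values reflect only how far these arrays differ, a spread that may be technical. Each lysate held many cells, so a level cannot tell fewer cells with a transcript from less transcript per cell. A difference between the groups compares what the antibodies recovered, not transcript amounts in the cells.

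Levels are log2 values per probe set, and a difference is always RBP minus IgG on that scale. The background level was set at 5.36, the 95th percentile of 1240 chemosensory receptor genes, which blood progenitors are not known to use. Medians over all probe sets were 5.85 and 5.93 with IgG and 5.57 and 5.62 with the RBP antibody. Their interquartile ranges were 2.91 and 2.87 with IgG and 3.73 and 3.61 with the RBP antibody. The sorted cell type had its markers: 9 of 9 early erythroid progenitor genes, Kit, Gata1 and Epor among them, lay above background. Of these 5 were called higher and 0 lower, with a median difference of 0.60. All 9 had mean levels above 9. Over all genes 57.8% were higher between levels of 9 and 10 (median difference 0.74) and 47.2% above 10 (0.56). Of 6 granulocyte and mast cell genes 5 lay above background and 2 were lower on the RBP arrays, and their summed log2 level was 56.1 and 49.8 with IgG and 49.6 and 44.8 with the RBP antibody. Of 5 hepatocyte genes 2 lay above background and none was called (median difference 0.0041). Of other cell types, 2 of 3 terminal erythroblast, 3 of 6 macrophage, 2 of 4 megakaryocyte, 5 of 5 lymphoid and 5 of 6 endothelial and stromal genes lay above background, and none of these lists had more than 1 gene called in either direction. The part of such cells in the results below was not tested.

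The comparison of RBP with IgG immunoprecipitates asked which transcripts the specific antibody recovered beyond control IgG. Many PPP subunit mRNAs were higher on the RBP arrays, led by Ppp1r9b, which encodes the actin-binding scaffold spinophilin (3.94-fold), Ppp4r2, a core subunit of PP4 (2.999-fold), the p53 cofactor gene Ppp1r13b (2.84-fold) and Ppp2r5e, a targeting subunit of PP2A (2.68-fold). Of the 79 genes, 32 were higher, 3 were lower and 44 did not pass at an adjusted p under 0.05 (limma, Benjamini-Hochberg over all 19938 genes). Over all genes 23.8% were higher and 6.54% lower, 30.3% in either direction. Both RBP arrays lay above both IgG arrays for 46 of the 79, against 37.4% of all genes, and below for 22, against 36.2%. With no overlap and at least a 2-fold distance, 17 were higher (13.5% of all genes) and 0 lower (1.23% of all genes). The 3 lower genes were Ppp4c, the catalytic subunit of PP4, Ppp3r2, a testis form of calcineurin B, and Ppp1r14d, a PP1 inhibitor. The median difference was 0.40 over the 79 genes and -0.02 over all genes.

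Much of that distance went with level, as the median difference over all genes was -0.23 below a level of 5 and 0.78 between 8 and 9. All 32 higher genes lay above background, where 62 of the 79 genes were found. Among these 62 the median difference was 0.69, against 0.40 for all 12828 genes above background, of which 36.5% were higher. The other 17 genes had a median of -0.25, close to the -0.23 of all genes at or below background; both turned positive with quantile normalization (0.098 and 0.11) and under chemosensory centring (0.066 and 0.083). Between mean levels of 8 and 9 the median was 0.99 for 13 PPP genes and 0.78 for all genes, and between 9 and 10 it was 0.92 for 14 and 0.74. With the trend of the difference on level subtracted, 8 of the 79 genes were higher and 4 lower by limma, against 5.63% and 5.09% of all genes.

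**Figure D1:**
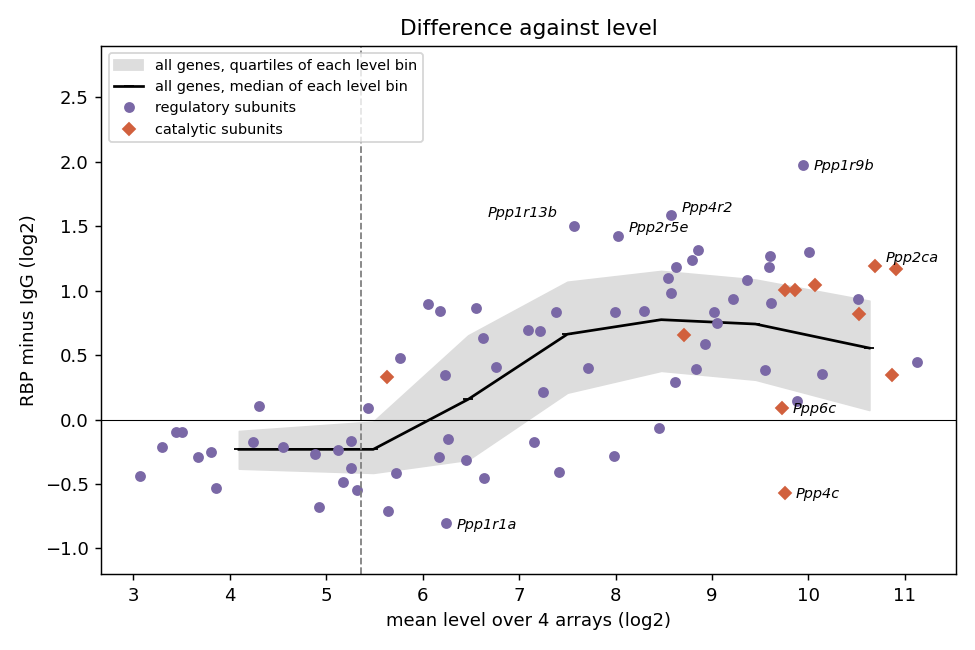
RBP minus IgG difference (log2) of each PPP gene against its mean level over 4 arrays (log2), with catalytic subunits as diamonds and regulatory subunits as circles. The black line and grey band give the median and quartiles of all 19938 genes in bins of level, and the dashed line is the background level of 5.36. Ppp1r9b lies highest above the band, and Ppp4c, at -0.57, lies below it among abundant genes whose median is 0.74.

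Many calls were lost with an RBP array left out or under another scaling, whereas directions were mostly kept. With an RBP array left out, limma takes the spread from the IgG pair alone. That pair was the less alike (SD of the difference over all genes 0.40, against 0.26 for the RBP pair). A call lost in that setting is therefore not by itself a sign of reliance on the array left out. With RBP array 1 left out 12 of the 32 higher genes still passed, and with RBP array 2 left out again 12, when 1724 and 2058 genes passed as higher in all. Quantile normalization left 13 of the 32 higher and 1 of the 3 lower genes. Chemosensory centring (each array shifted to a common median of the chemosensory receptor genes) left all 32 higher and 0 of the 3 lower genes. It raised the number of higher PPP genes to 44. Over all 19938 genes 2207 were higher with quantile normalization and 7074 with centring, against 4741 without either. The median of all genes moved to 0.16 and 0.29 in these settings. The 13 were Ppp2ca, Ppp1cc, Ppp5c, Ppp2r1b, Ppp2r3a, Ppp2r5b, Ppp2r5e, Ppp4r1, Ppp6r3, Ppp1r8, Ppp1r9b, Ppp1r11 and Ppp1r13b, and the lower gene was Ppp4c. With the level trend removed, the 8 higher calls were those of Ppp2ca, Ppp1cc, Ppp2r1b, Ppp2r3a, Ppp2r5b, Ppp2r5e, Ppp1r9b and Ppp1r13b. Ppp1r9b, Ppp1r13b, Ppp2ca, Ppp2r1b and Ppp2r5e passed in each of the 11 alternatives run. The only sign change among the 35 called genes was that of Ppp3ca with the level trend removed.

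Of the 11 catalytic subunit genes 7 were higher and 1 was lower, with a median difference of 0.82. All of them lay above background. The PP2A catalytic mRNA Ppp2ca stood at 10.11 and 10.08 with IgG and at 11.19 and 11.39 with the RBP antibody. Its difference was 1.19 ± 0.15 (SE; limma, adjusted p = 0.00610), a 2.29-fold excess with no overlap between groups. Ppp2cb, which encodes the nearly identical second form of that subunit, gave 9.21 and 9.29 against 10.32 and 10.19, a difference of 1.01 ± 0.15 (limma, adjusted p = 0.00753). Taken within each array, Ppp2ca minus Ppp2cb overlapped between groups and changed by 0.19. With quantile normalization that change was 0.45, as Ppp2ca gave 1.03 and Ppp2cb 0.58 (limma, adjusted p = 0.0198 and 0.0643), and with the level trend removed it was 0.36.

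Of the 3 PP1 catalytic genes 2 were higher. Ppp1cc, for the gamma form, read 10.44 and 10.20 with IgG and 11.42 and 11.57 with the RBP antibody, a difference of 1.17 ± 0.16 (SE; limma, adjusted p = 0.00689). A second probe set of Ppp1cc gave 1.20. Ppp1ca, the alpha form, read 10.26 and 9.96 against 10.89 and 10.97, a difference of 0.82 ± 0.17 (limma, adjusted p = 0.0173). Ppp1cb, the beta form that joins the myosin phosphatase, read 10.63 and 10.75 against 11.14 and 10.93, and its difference of 0.35 ± 0.16 did not pass (limma, adjusted p = 0.147) and turned to -0.05 with the level trend removed. Its RBP arrays lay above its IgG arrays all the same, by less than those of the other forms. Taken within each array, Ppp1cc minus Ppp1cb went from -0.18 and -0.55 on the IgG arrays to 0.27 and 0.64 on the RBP arrays.

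Calcineurin has 3 catalytic genes, and the 2 with levels well above background were higher. Of all genes 56.4% were higher between levels of 8 and 9 and 57.8% between 9 and 10, where these 2 lay. Ppp3cb read 9.39 and 9.32 with IgG and 10.19 and 10.53 with the RBP antibody, a difference of 1.005 ± 0.17 (SE; limma, adjusted p = 0.0110). Ppp3ca read 8.53 and 8.23 against 9.07 and 9.01, a difference of 0.66 ± 0.17 (limma, adjusted p = 0.0336), which was 0.12 with quantile normalization and -0.06 with the level trend removed. Ppp3cc, best known from testis, stayed near background at 5.40 to 6.03 and did not pass. Ppp3r1, the calcium-binding B subunit that every calcineurin needs, followed Ppp3cb: it read 8.13 and 7.86 against 9.15 and 9.03, a difference of 1.10 ± 0.17 (limma, adjusted p = 0.00798). The call of Ppp3r1 was lost with quantile normalization (limma, adjusted p = 0.0922) and with the level trend removed (0.205). That of Ppp3cb was lost in the same settings (0.0880 and 0.189). Without RBP array 1 the call of Ppp3r1 was also lost, at a difference of 1.04. Ppp3r2, the testis B subunit, was called lower (-0.53 ± 0.15; limma, adjusted p = 0.0421) at levels of 3.58 to 4.19, all under background, and its call was lost under chemosensory centring (0.306), with quantile normalization (0.533), with the level trend removed (0.270) and without IgG array 1 (0.0567), RBP array 1 (0.278) or RBP array 2 (0.231).

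Ppp5c, whose product docks on Hsp90 beside the glucocorticoid receptor, was among the most even results. It read 9.52 and 9.58 with IgG and 10.55 and 10.63 with the RBP antibody, a difference of 1.04 ± 0.14 (SE; limma, adjusted p = 0.00670). Ppp6c and Ppp4c, the catalytic subunits of PP6 and PP4, departed from the rest. Ppp6c read 9.68 on each IgG array and 9.47 and 10.08 on the RBP arrays, so the groups overlapped and the difference was 0.09 ± 0.23 (limma, adjusted p = 0.771), with a negative sign under quantile normalization, with the level trend removed and without RBP array 2. Ppp4c read 10.00 and 10.08 against 9.35 and 9.59, a difference of -0.57 ± 0.16 (limma, adjusted p = 0.0435). Both of its RBP arrays lay below both IgG arrays.

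The direction of Ppp4c was kept in each of the 11 alternatives, but its call was not. The difference was -0.99 with quantile normalization (limma, adjusted p = 0.0225) and -1.18 once the level trend was taken out (adjusted p = 0.0208), but -0.25 under chemosensory centring (adjusted p = 0.297). Without IgG array 1 its adjusted p was 0.0502, without IgG array 2 0.0627, without RBP array 1 0.335 and without RBP array 2 0.140. Of the higher catalytic genes, Ppp1ca, Ppp3ca and Ppp5c lost their calls with either RBP array left out (adjusted p 0.0504 to 0.214). Ppp2cb lost its call without RBP array 1 (0.0699), and Ppp3cb (0.0876) and Ppp1cc (0.0501) without RBP array 2.

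**Figure D2:**
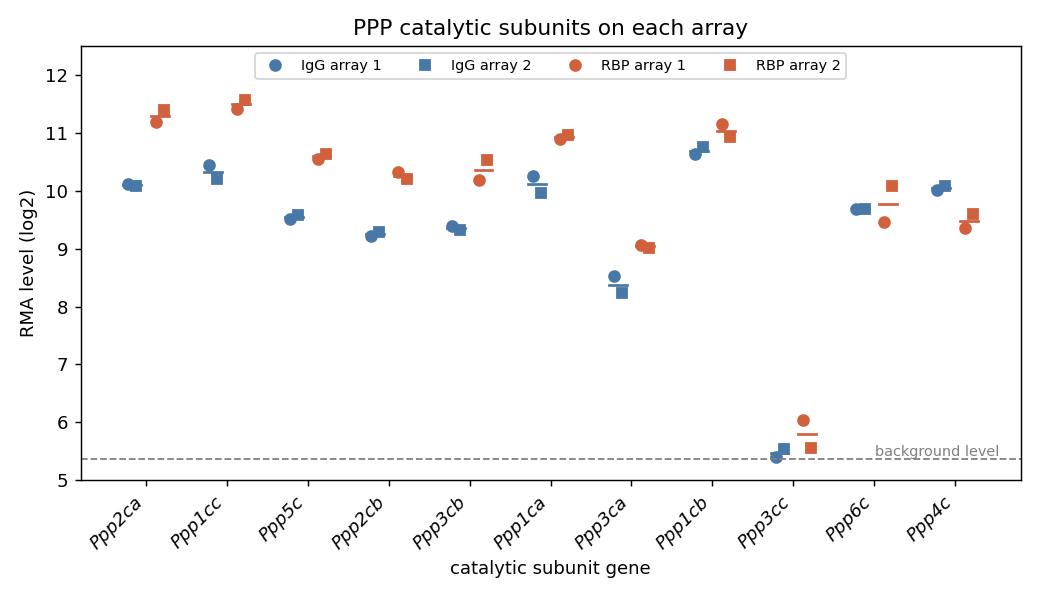
RMA level (log2) of the 11 catalytic subunit genes on each of the 4 arrays, with IgG in blue, RBP in red, circles for array 1 and squares for array 2; short lines are group means and the dashed line is the background level. Ppp4c is the gene whose RBP arrays both lie below its IgG arrays, Ppp6c overlaps, and the other 9 have both RBP arrays above both IgG arrays.

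PP2A is a trimer of scaffold, catalytic and B subunits, and its B subunits fall into families with different targets. All 11 PP2A regulatory genes above background had positive differences, 6 of them called, with a median of 0.84. Of all 12828 genes above background 8581 had positive differences and 36.5% were called higher, with a median of 0.40. Of the 11 PP2A genes, 3 that were not called turned negative with quantile normalization or with the level trend removed. The 2 scaffold genes differed in size. Ppp2r1b, the beta scaffold, read 9.48 and 9.23 with IgG and 10.57 and 10.74 with the RBP antibody, a difference of 1.30 ± 0.17 (SE; limma, adjusted p = 0.00619). Ppp2r1a, the alpha scaffold that most PP2A contains, read 10.82 and 10.98 against 11.29 and 11.40, a difference of 0.44 ± 0.15 that did not pass (limma, adjusted p = 0.0752). Within each array Ppp2r1b minus Ppp2r1a went from -1.33 and -1.76 to -0.72 and -0.66, so the groups did not overlap in that measure either.

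The B56 family guards centromeric cohesion and opposes several growth kinases, and 3 of its 5 genes were higher. Ppp2r5b had a mean level between 6 and 7, where 23.4% of all genes were higher. The other B56 genes lay between 8 and 10. There the share of all genes was 56.4% from 8 to 9 and 57.8% from 9 to 10. Ppp2r5e, the epsilon form, read 7.33 and 7.29 with IgG and 8.79 and 8.68 with the RBP antibody, a difference of 1.42 ± 0.14 (SE; limma, adjusted p = 0.00558). Ppp2r5a, the alpha form, read 8.49 and 7.90 against 9.63 and 9.40, a difference of 1.32 ± 0.23 (limma, adjusted p = 0.0119), and its 3 other probe sets gave 0.93, 1.001 and 0.86. The call of Ppp2r5a was lost with quantile normalization (limma, adjusted p = 0.0914) and with the level trend removed (0.154). Ppp2r5b, the beta form, was higher by 0.84 ± 0.15 (limma, adjusted p = 0.0111) from a lower level of 5.83 and 5.70 on the IgG arrays. The delta form Ppp2r5d missed narrowly at 0.59 ± 0.17 (limma, adjusted p = 0.0501). The gamma form Ppp2r5c gave 0.39 ± 0.22 (adjusted p = 0.218), while its 3 dimmer probe sets gave 0.26, 0.63 and 1.08. Ppp2r5c turned to -0.08 with quantile normalization and -0.26 with the level trend removed, and Ppp2r5d to -0.12 with that trend removed.

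Among B55 subunits, which steer PP2A at mitotic exit, Ppp2r2a was higher, at 7.94 and 7.81 with IgG and 8.79 and 8.66 with the RBP antibody (0.85 ± 0.15; limma, adjusted p = 0.0120). Ppp2r2d gave 0.40 ± 0.18 (limma, adjusted p = 0.137) and -0.24 with the level trend removed. The brain forms Ppp2r2b and Ppp2r2c lay at or below background on average, with differences of -0.27 and -0.24 that turned positive with quantile normalization and under chemosensory centring. Of the PR72 family, Ppp2r3a was higher, at 5.80 and 5.42 against 6.52 and 6.49 (0.90 ± 0.18; limma, adjusted p = 0.0165). Ppp2r3c read 7.29 and 7.88 against 8.04 and 8.79, with array 2 above array 1 in both groups, and its difference of 0.84 ± 0.31 did not pass (limma, adjusted p = 0.0951). Ppp2r3a, Ppp2r5b and Ppp2r2a lost their calls with either RBP array left out (adjusted p 0.0729 to 0.114), and Ppp2r5a lost its call without RBP array 1 (0.0650).

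Among the pairs of subunits compared within arrays, the widest splits were in PP4. Its catalytic mRNA was lower, as described above, while 3 of its regulatory mRNAs were higher. These 3 had mean levels between 8 and 10. Of all genes, 56.4% were higher between levels of 8 and 9 and 57.8% between 9 and 10. With the level trend removed 0 of the 3 passed. Ppp4r2 and Ppp4r3b also lost their calls with quantile normalization (limma, adjusted p = 0.121 and 0.0674). Ppp4r2, which joins the catalytic subunit in the trimer that acts at DNA breaks, read 8.29 and 7.27 with IgG and 9.53 and 9.20 with the RBP antibody, a difference of 1.58 ± 0.35 (SE; limma, adjusted p = 0.0217), with IgG arrays a full unit apart. Ppp4r1, which forms a separate dimer with the enzyme, read 8.84 and 9.15 against 10.15 and 10.21, a difference of 1.18 ± 0.17 (limma, adjusted p = 0.00710). Ppp4r3b, a substrate-binding subunit of the trimer, read 8.84 and 8.80 against 9.80 and 10.01, a difference of 1.08 ± 0.15 (limma, adjusted p = 0.00710). Its paralog Ppp4r3a missed the threshold at 0.36 ± 0.14 (limma, adjusted p = 0.114), with -0.19 once the level trend was removed, and Ppp4r4 lay below background at 3.42 to 3.87.

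Taken within each array, which cancels any shift of a whole array, Ppp4r1 minus Ppp4c was -1.16 and -0.93 with IgG and 0.79 and 0.62 with the RBP antibody. Ppp4r3b minus Ppp4c went from -1.16 and -1.28 to 0.45 and 0.41, and Ppp4r2 minus Ppp4c from -1.71 and -2.81 to 0.17 and -0.39. The sign of these distances depends on the probes and carries no meaning, but their change can be read, and it was 1.75, 1.65 and 2.15. Even Ppp4r3a moved by 0.92 against Ppp4c. The changes were 1.73, 1.58, 2.12 and 1.003 for Ppp4r1, Ppp4r3b, Ppp4r2 and Ppp4r3a with quantile normalization. The 13 pairs examined were chosen with the values in view, and an exact permutation test of 2 arrays against 2 cannot give a two-sided p below 0.333, so none was tested. Ppp4r2 lost its call without RBP array 1 (limma, adjusted p = 0.0843) and Ppp4r3b without RBP array 2 (0.0592), and Ppp4r1 passed without either.

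PP6, a phosphatase of Aurora A and of DNA repair kinases, also had regulatory mRNAs apart from its catalytic mRNA. All 3 of its SAPS-domain subunits were higher. Of all genes, 56.4% were higher between levels of 8 and 9, 57.8% between 9 and 10 and 47.2% above 10. With the level trend removed 0 of the 3 passed. Ppp6r1 and Ppp6r2 also lost their calls with quantile normalization (limma, adjusted p = 0.0804 and 0.0989). Ppp6r3 read 8.92 and 9.01 with IgG and 10.18 and 10.30 with the RBP antibody, a difference of 1.27 ± 0.15 (SE; limma, adjusted p = 0.00568). Ppp6r2 was higher by 0.99 ± 0.14 (limma, adjusted p = 0.00718) and Ppp6r1 by 0.94 ± 0.19 (limma, adjusted p = 0.0162). Ppp6c did not pass, and the signed within-array difference of each regulatory gene minus Ppp6c was higher on both RBP arrays than on both IgG arrays, by 1.18 for Ppp6r3, 0.89 for Ppp6r2 and 0.84 for Ppp6r1 on average. It went from -0.76 and -0.67 to 0.71 and 0.22 for Ppp6r3 and from -1.62 and -1.59 to -0.43 and -0.99 for Ppp6r2. For Ppp6r1 it went from 0.23 and 0.49 to 1.67 and 0.74. The RBP arrays differed in Ppp6c itself (9.47 and 10.08). Ppp6r1 and Ppp6r2 lost their calls with either RBP array left out (adjusted p 0.0509 to 0.128).

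**Figure D3:**
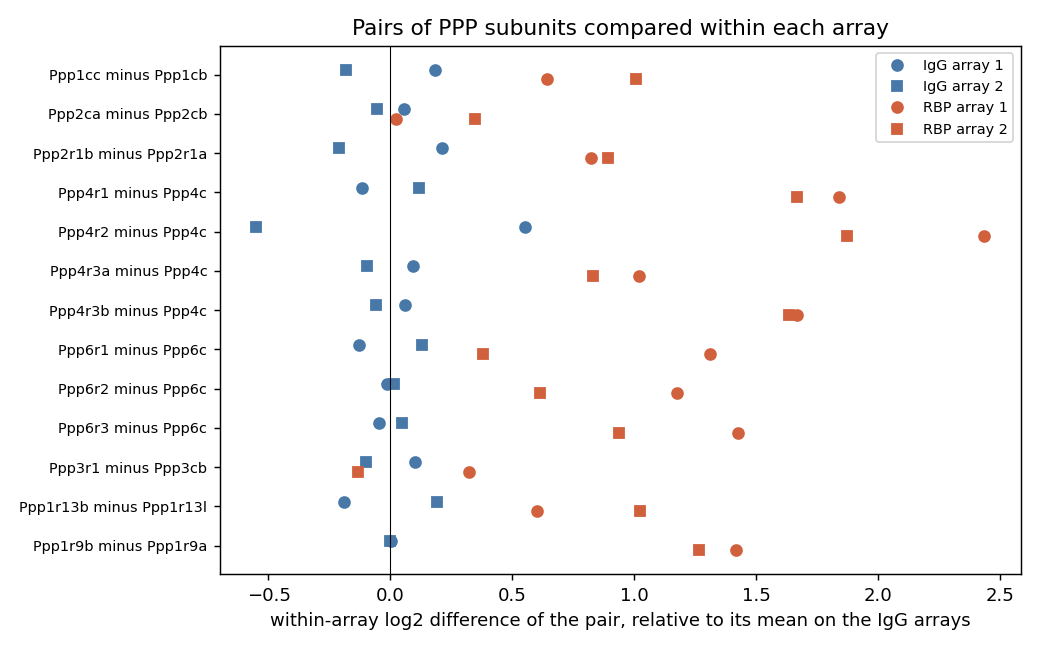
Within-array log2 difference between the subunits of 13 pairs, each shown relative to its mean on the IgG arrays, with IgG in blue, RBP in red, circles for array 1 and squares for array 2. The groups separate for 11 pairs, most widely for Ppp4r2, Ppp4r1 and Ppp4r3b against Ppp4c, and overlap for Ppp2ca minus Ppp2cb and Ppp3r1 minus Ppp3cb.

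PP1 has by far the most regulators, and they are described here by role. Of 43 genes with Ppp1r symbols 12 were higher and 1 was lower, with a median difference of 0.09, or 0.40 for the 31 above background. The shares called higher, 27.9% of all 43 and 38.7% of those above background, were near the 23.8% and 36.5% of all genes, and the median of all genes above background was also 0.40. The 3 genes grouped here under a nuclear label, Ppp1r8, Ppp1r7 and Ppp1r10, were called higher. Among all genes this share was 56.4% between levels of 8 and 9 and 57.8% between 9 and 10. With the level trend removed 0 of the 3 passed. Ppp1r7 and Ppp1r10 also lost their calls with quantile normalization (limma, adjusted p = 0.107 and 0.135). Ppp1r8 (NIPP1), which binds splicing factors, read 8.26 and 8.09 with IgG and 9.35 and 9.48 with the RBP antibody, a difference of 1.24 ± 0.15 (SE; limma, adjusted p = 0.00596). Ppp1r7 (SDS22), a chaperone-like partner of new PP1, read 7.94 and 8.13 against 8.95 and 9.47, a difference of 1.18 ± 0.22 (limma, adjusted p = 0.0129). Ppp1r10 (PNUTS), which brings PP1 to RNA polymerase II, differed by 0.94 ± 0.15 (limma, adjusted p = 0.00918). Ppp1r8 passed without either RBP array, Ppp1r7 lost its call without RBP array 2 (0.0741), and Ppp1r10 lost its call with either left out (0.0581 and 0.0850).

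Both subunits that direct PP1 to eIF2 alpha were higher. Ppp1r15a (GADD34), the form induced by stress, read 8.80 and 8.42 with IgG and 9.40 and 9.48 with the RBP antibody, a difference of 0.83 ± 0.18 (SE; limma, adjusted p = 0.0216). Ppp1r15b (CReP), the constitutive form, read 9.38 and 8.94 against 10.18 and 9.94, a difference of 0.90 ± 0.20 (limma, adjusted p = 0.0235). A second, dimmer probe set assigned to Ppp1r15b had the opposite sign, at 9.15 and 9.08 against 8.53 and 8.34, a difference of -0.68 ± 0.16 that missed the threshold (limma over all probe sets, adjusted p = 0.0551). The mean over both probe sets gave 0.11 (limma, adjusted p = 0.621), so the call of Ppp1r15b rests on the brighter probe set. Neither gene passed with either RBP array left out (adjusted p 0.0729 to 0.153) or with the level trend removed (0.681 and 0.440). Of 14 genes of the eIF2 alpha kinases, the eIF2 and eIF2B subunits and their targets, 9 were higher and 0 lower in limma (11 higher and 0 lower at an unadjusted p under 0.05), among them Eif2ak2 (1.76 ± 0.16), Eif2ak3 (1.34 ± 0.16), the PP1 adaptor Nck1 (1.08 ± 0.15) and the haem-regulated kinase Eif2ak1 (1.02 ± 0.15). All 14 lay above background, where 36.5% of all genes were higher, and between levels of 8 and 9 the share of all genes was 56.4%. With the level trend removed 2 of the 14 were higher and 1 lower, with a median of 0.12. Without RBP array 1 3 of these genes passed as higher and without RBP array 2 2, and Eif2ak1 passed in neither case (0.0554 and 0.0609).

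Spinophilin and the ASPP proteins, large PP1-binding scaffolds, included the largest difference of the family. Ppp1r9b (spinophilin) read 8.77 and 9.13 with IgG and 11.09 and 10.77 with the RBP antibody, a difference of 1.98 ± 0.20 (SE; limma, adjusted p = 0.00558). It remained at 1.39 with the level trend removed (limma, adjusted p = 0.0213) and passed without any single array. Its relative Ppp1r9a (neurabin) was higher by 0.64 ± 0.18 (limma, adjusted p = 0.0490), the weakest of the 32 calls, lost without IgG array 1 (0.0791), RBP array 1 (0.286) or RBP array 2 (0.154). Ppp1r13b (ASPP1), which stimulates p53, read 6.73 and 6.91 against 8.26 and 8.39, a difference of 1.51 ± 0.15 (limma, adjusted p = 0.00558). Ppp1r13l (iASPP), which restrains p53, was higher by 0.69 ± 0.18 (limma, adjusted p = 0.0327) and lost its call without IgG array 2 (0.0586), RBP array 1 (0.255) or RBP array 2 (0.0933). The actin-binding Ppp1r18 varied widely between the arrays of each group and gave -0.18 ± 0.40.

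Of the 5 myosin phosphatase targeting genes 1 was higher. Ppp1r12a (MYPT1) read 8.55 and 8.80 with IgG and 9.55 and 9.30 with the RBP antibody, a difference of 0.75 ± 0.17 (SE; limma, adjusted p = 0.0262) that lost its call without RBP array 1 (0.209) or RBP array 2 (0.0874). It was 0.21 with quantile normalization (adjusted p = 0.497) and 0.051 with the level trend removed (0.879). Ppp1r16a, Ppp1r16b, Ppp1r12b and Ppp1r12c did not pass, with differences of 0.69, 0.41, 0.40 and 0.29. For Ppp1r12b the 7 probe sets gave 0.11 to 0.72, none called, and IgG array 2 lay above IgG array 1 on all of them. Ppp1r12b and Ppp1r12c, whose groups overlapped, turned negative with quantile normalization (-0.13 and -0.24) and with the level trend removed.

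The inhibitors and the glycogen-targeting subunits had negative median differences; that of the inhibitors stayed negative in the other scalings (-0.04 to -0.32), whereas that of the glycogen group turned positive. Of 10 PP1 inhibitor genes 1 was higher, 1 was lower and 7 had negative differences, with a median of -0.35. Over all genes 10281 of 19938 had negative differences. The median of all genes was -0.23 between levels of 5 and 6 and 0.16 between 6 and 7. Of the 10 inhibitor genes 7 lay above background. The higher gene was Ppp1r11 (inhibitor-3), at 6.12 and 6.11 with IgG and 7.05 and 6.91 with the RBP antibody (0.86 ± 0.15; limma, adjusted p = 0.0105). The lower gene was Ppp1r14d, a relative of the smooth muscle inhibitor CPI-17, at 6.00 and 5.99 against 5.23 and 5.33 (-0.71 ± 0.14; limma, adjusted p = 0.0171); its RBP arrays lay below background and its call was lost under chemosensory centring (-0.40, adjusted p = 0.0843), with quantile normalization (0.129) and with the level trend removed (0.0667). Ppp1r1a (inhibitor-1), with the most negative difference of the family, gave -0.80 ± 0.24 and missed narrowly (limma, adjusted p = 0.0508). Ppp1r2 (inhibitor-2), which all cells use, gave 0.22 ± 0.17 (limma, adjusted p = 0.344), with -0.02 under quantile normalization and -0.34 with the level trend removed, and its 4 probe sets shared with a pseudogene gave 0.13 to 0.33. Ppp1r11 and Ppp1r14d lost their calls with either RBP array left out (adjusted p 0.0662 to 0.167).

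None of the 7 glycogen-targeting genes was called by limma (0 higher and 2 lower at an unadjusted p under 0.05), and their differences ran from -0.45 to 0.34 with a median of -0.18 that was 0.20 with quantile normalization, 0.14 under chemosensory centring and 0.055 with the level trend removed. They bring PP1 to glycogen in liver and muscle. Ppp1r3e read 7.68 and 7.54 with IgG and 7.23 and 7.19 with the RBP antibody, and Ppp1r3g 6.99 and 6.74 against 6.42 and 6.41. These were 2 of the 4 genes called lower once the level trend was removed (-0.996 and -0.75; limma, adjusted p = 0.0216 and 0.0413), with Ppp4c and the centrosomal gene Ppp1r35 (-0.97, adjusted p = 0.0228). The liver gene Ppp1r3b gave 0.34 and the muscle gene Ppp1r3a lay far under background at 3.33 to 3.54. Of the 9 further PP1 regulators in no list, Ppp1r21, a subunit of an endosomal mRNA transport complex, was higher (0.83 ± 0.14; limma, adjusted p = 0.0106), a call lost without RBP array 1 (0.0890) or RBP array 2 (0.0922). The remaining 8 spanned -0.55 to 0.48, and the 4 pseudogenes -0.43 to 0.10, with none called.

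**Figure D4:**
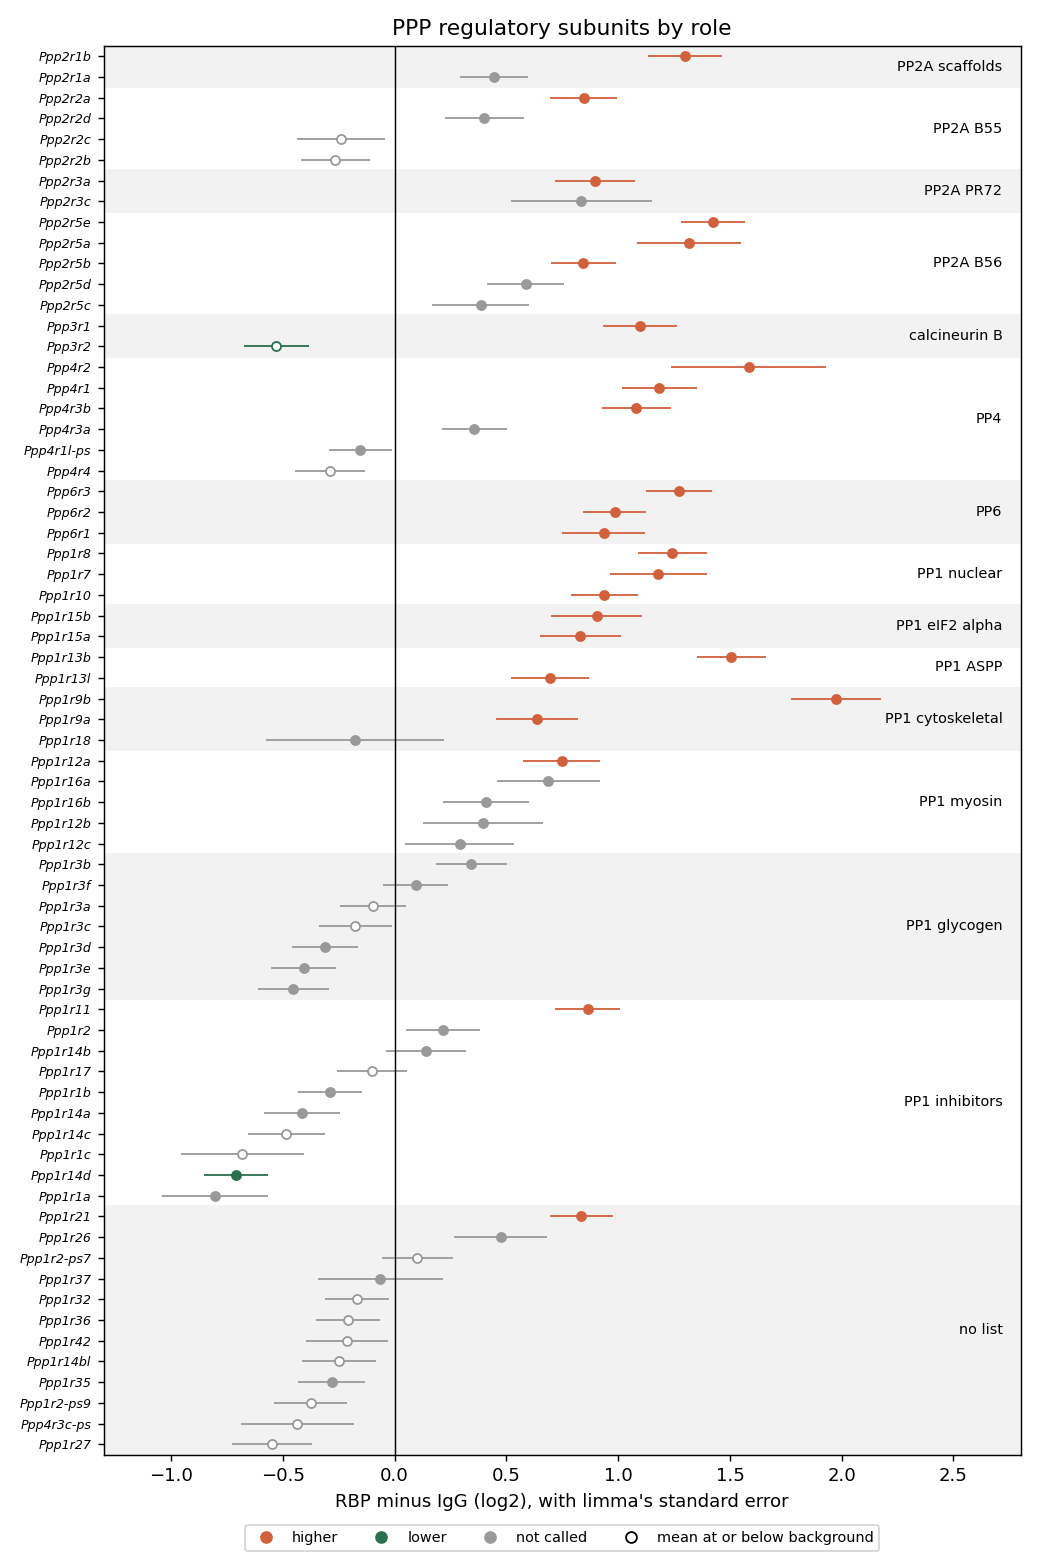
RBP minus IgG difference (log2) of the 68 regulatory genes by role, with limma's standard error (2 arrays a group); red marks genes called higher, green genes called lower, grey genes not called, and open symbols a mean level at or below background. The PP6 genes and the PP1 groups labelled nuclear, eIF2 alpha and ASPP are all called higher. The glycogen group has none called, and the inhibitor group lies mostly below 0 under the scaling used. With the level trend removed 0 PP6, nuclear and eIF2 alpha genes and 1 ASPP gene pass as higher.

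Catalytic and regulatory subunits were set side by side as groups of genes, which are not replicates, so no test was made. Of the catalytic genes 7 of 11 (63.6%) were higher, and of the regulatory genes 25 of 68 (36.8%). Over all genes the share was 36.5% above background, 57.8% between levels of 9 and 10 and 47.2% above 10, the range that holds most catalytic genes. All 17 genes at or below background were regulatory, and among genes above background the share was 25 of 51 (49.0%), with medians of 0.82 and 0.69. With the level trend removed these medians were 0.39 for catalytic genes and 0.15 for regulatory genes above background. The mean log2 level over the catalytic genes was 9.38 and 9.34 with IgG and 9.97 and 10.04 with the RBP antibody. That over the regulatory genes was 6.94 and 6.85 against 7.27 and 7.24. The distance between these means was 2.46 ± 0.04 (SD, n = 2) with IgG and 2.753 ± 0.07 with the RBP antibody, with no overlap between the groups. It was taken on the deposited values, with the 17 regulatory genes at or below background included. The RBP arrays also had the wider interquartile ranges over all probe sets (3.73 and 3.61, against 2.91 and 2.87 with IgG). The part of that spread in this distance was not tested.

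Partners of these enzymes that carry other symbols, and other phosphatase families, were read beside them from gene lists. Of 36 partner genes 17 were higher and 0 lower in limma (19 higher and 1 lower at an unadjusted p under 0.05), with a median of 0.70. With the level trend removed 1 of the 36 was higher and 0 lower, with a median of 0.11. For this and the following families, all but a few of whose genes lay above background, the share to set beside the counts is the 36.5% of all genes above background called higher. The higher partners included Bod1l, a relative of the B56 inhibitor Bod1 (2.28 ± 0.15), Arpp19, the mitotic inhibitor of B55 (1.44 ± 0.19), the striatin Strn3, a B-type subunit of PP2A (1.36 ± 0.16), and Ppme1, which removes the methyl group from the PP2A catalytic tail (1.29 ± 0.21). The partner with the most negative difference was Set, an inhibitor of PP2A, named here after its value was seen. It read 6.70 and 8.49 with IgG and 5.28 and 6.29 with the RBP antibody, a difference of -1.81 ± 0.62 without overlap that missed the threshold (limma, adjusted p = 0.0756). Of 19 metal-dependent PPM phosphatases, which act on the same residues by another fold and without such subunits, 13 were higher and 0 lower (15 higher and 0 lower at an unadjusted p under 0.05), with a median of 0.95. Phlpp1 (1.75 ± 0.17), Ppm1f (1.62 ± 0.30), Pptc7 (1.504 ± 0.15) and Phlpp2 (1.36 ± 0.15) led them. With the level trend removed 3 of the 19 were higher and 0 lower, with a median of 0.32. Of 23 dual-specificity phosphatases, many of which switch off MAP kinases, 3 were higher and 1 was lower, with a median of -0.03 that was 0.19 with quantile normalization and 0.28 under chemosensory centring. Styx (1.20 ± 0.25), Dusp1 (0.80 ± 0.15) and Dusp2 (0.72 ± 0.21) were higher and Dusp10 (-0.86 ± 0.15) was lower. With the level trend removed 0 of the 23 were higher and 4 lower, with a median of -0.02. Without RBP array 1 or RBP array 2, 7 and 7 partner genes, 3 and 7 PPM genes and 1 and 0 dual-specificity genes passed as higher, and Dusp10 passed in neither case (limma, adjusted p = 0.0947 and 0.0784).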

How the data were processed

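RNA recovered by RBP and control immunoprecipitation was measured on 4 Affymetrix whole-transcript arrays, 2 a group. The authors deposited log2 levels of 35556 probe sets, made with RMA and affy, as the submitters' processing notes name them. Tool versions and filters are not stated there. Column spreads differ between the groups, so the deposited values do not have the equal distributions that quantile normalization gives.

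Probe sets were named from the platform annotation: 21789 had 1 symbol, 1621 several and 12146 none. All 79 members were found in the RefSeq gene table (GRCm38.p6), and no symbol changed. Each of 19938 genes was represented by its brightest probe set, and Ppp genes were taken by symbol. RBP was compared with IgG by limma 3.58.1 in R 4.3.3 (lmFit and eBayes, all 4 arrays, no covariate), with Benjamini-Hochberg adjustment over all genes and a threshold of 0.05. The spread had 2 residual and 3.76 prior degrees of freedom, and the median standard error was 0.170. The number of arrays limits the precision. The script was tested on simulated data.

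Alternatives were quantile normalization, centring on chemosensory receptor genes, genes above their level only, the mean of probe sets, a replicate block, eBayes with trend and robust options, each array left out, and removal of the level trend (loess, span 0.3). With an array left out, the lone array of its group is assumed to vary like the other group.

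Named were all catalytic, PP2A, calcineurin B, PP4 and PP6 subunits, the called PP1 regulators with the largest differences (up to 10 higher and 8 lower), a set list of PP1 regulators, and up to 4 called genes from each partner list. Further genes were named after their values were seen, to account for every group. The members and lists were chosen with earlier results of these data known.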

Additional observations from a re-analysis of the deposited data

How the results depend on the processing

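Against 32 higher and 3 lower calls in all, newly called genes included, there were 13 and 3 with quantile normalization, 8 and 4 with the level trend removed, 44 and 0 with centring on the chemosensory genes, and 31 and 5 with eBayes trend and robust options. Over all genes 4741 were higher and 1304 lower. In these settings, in the same order, the counts over all genes were 2207 and 553, 1122 and 1014, 7074 and 317, and 4615 and 1728. Of the 3 lower genes themselves, quantile normalization and trend removal each kept 1. Catalytic calls fell from 7 to 3 with quantile normalization and to 2 with the trend removed, and regulatory calls from 25 to 10 and 6. The median over all PPP genes was 0.24 with quantile normalization, 0.71 after centring, 0.69 for genes above the chemosensory level only and 0.11 with the trend removed; for catalytic genes it was 0.59, 1.13, 0.82 and 0.39, and for regulatory genes 0.22, 0.68, 0.69 and 0.053. Leaving out each array in turn gave 12 to 35 higher and 0 to 10 lower genes, 2 to 7 higher catalytic and 9 to 28 higher regulatory genes, with medians of 0.36 to 0.45, 0.67 to 0.96 and 0.29 to 0.37. Without IgG array 2 there were 10 lower genes, without IgG array 1 1, and without either RBP array 0. With the replicate block 35 genes were higher and 7 lower; arrays of the same number deviated together only weakly (correlation 0.26, 2 pairs), and the labels give the numbers no shared batch. Ppp2r3c, not called in the report, had an adjusted p of 0.00203 with the block and 0.0383 with centring. Of the 44 uncalled genes, 17 changed sign with quantile normalization, 16 with centring and 17 with the trend removed. Those among the genes named by rule were: with quantile normalization Ppp2r2b (0.095), Ppp2r2c (0.10), Ppp2r5c (-0.083), Ppp4r4 (0.069), Ppp6c (-0.35) and Ppp1r2 (-0.018); after centring Ppp2r2b (0.049), Ppp2r2c (0.075) and Ppp4r4 (0.025); with the trend removed Ppp1cb (-0.054), Ppp2r2d (-0.24), Ppp2r5c (-0.26), Ppp2r5d (-0.12), Ppp4r3a (-0.19), Ppp6c (-0.52) and Ppp1r2 (-0.34); without RBP array 2 Ppp6c (-0.21, in a range up to 0.40 without RBP array 1). The called gene Ppp3ca gave -0.061 with the trend removed. The cause of these changes was not tested. The 2 arrays a group limit the precision, and 17 genes at or below background are read only near the array's background.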
